A study of Homo sapiens with 4 samples.

Results

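The enzymes that make serine, asparagine and proline and that pass the carbon units of serine to folate in mitochondria were examined in MDA-MB-361 cells in which dermcidin (DCD) was targeted by shRNA. The genes were PHGDH, PSAT1, PSPH, SHMT2, MTHFD2, MTHFD1L, ALDH1L2, ASNS, PCK2 and PYCR1. Every probe set whose platform annotation gives 1 of these 10 symbols as its only gene was taken, which gave 20 of the 54675 probe sets on the array. MDA-MB-361 is an established human breast cancer line of luminal, HER2-amplified type. RNA was hybridized to 4 Affymetrix U133 Plus 2.0 arrays, 1 from cells with the pLKO control vector and 1 from each of 3 derivatives (clones 1, 2 and 3) with an shRNA against a different region of the DCD transcript in the same lentiviral vector. The paper names the 3 shRNAs IBC-I, IBC-II and IBC-III. It speaks of the derivatives as cell pools in some places and as clones in others. The sample labels call them clones, and the numbers of the labels are kept here. Each group is therefore 1 culture of the same line on 1 array, and all 3 comparisons share the same pLKO array.

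Serine is made from a glycolytic intermediate, 3-phosphoglycerate, which PHGDH oxidizes, PSAT1 transaminates and PSPH dephosphorylates. In mitochondria SHMT2 splits serine into glycine and a carbon unit carried by folate, MTHFD2 oxidizes that unit, MTHFD1L releases it as formate and ALDH1L2 burns it to CO2 with production of NADPH. ASNS makes asparagine from aspartate and glutamine, PYCR1 carries out the last step of proline synthesis, and PCK2 makes phosphoenolpyruvate from oxaloacetate in mitochondria. Most of these genes are known targets of ATF4, the transcription factor of the amino acid response, and PHGDH is amplified in a subset of breast cancers.

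RefSeq promoter sequences (GRCh38.p14, 250 bases before to 50 after a gene start) were matched for 6 of the 10 genes, with 10 entries, since a gene may have several starts. The 120 bases just before the start are shown for 5 genes that were measurable on the arrays and that were lower than pLKO in clones 1 and 2 by their brightest probe set, 5' to 3' on the strand of the gene. Capitals mark matches to TGATGNAA, the ATF4 and C/EBP type motif of the amino acid response, to the CCAAT box and to the E-box CACGTG, each searched on both strands.
PHGDH, chr1:119711814-119711933, plus strand: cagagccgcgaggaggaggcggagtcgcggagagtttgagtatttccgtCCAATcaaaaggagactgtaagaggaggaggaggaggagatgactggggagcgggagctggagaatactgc
PSAT1, chr9:78297005-78297124, plus strand: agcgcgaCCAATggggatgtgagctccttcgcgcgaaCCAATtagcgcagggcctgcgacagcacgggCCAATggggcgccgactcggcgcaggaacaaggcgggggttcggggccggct
MTHFD2, chr2:74198495-74198614, plus strand: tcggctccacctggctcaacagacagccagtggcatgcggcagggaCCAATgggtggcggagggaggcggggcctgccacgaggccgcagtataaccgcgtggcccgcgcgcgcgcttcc
ASNS, chr7:97872409-97872528, minus strand: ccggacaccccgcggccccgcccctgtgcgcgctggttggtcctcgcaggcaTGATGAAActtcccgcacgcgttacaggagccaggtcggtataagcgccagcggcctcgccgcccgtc
PCK2, chr14:24094191-24094310, plus strand: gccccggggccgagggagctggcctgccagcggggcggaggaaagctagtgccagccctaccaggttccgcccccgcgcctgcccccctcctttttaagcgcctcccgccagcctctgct
TGATGNAA was found in ASNS as TGATGAAA, 68 bases before the start, and in MTHFD1L as TGATGCAA, in 3 of its 4 entries, whose windows overlap. The other ASNS entry held no match. Of all 35116 promoter entries, 3.62% held this motif. CCAAT was found in PHGDH at 71 bases before the start, in PSAT1 at 113, 83 and 52, in MTHFD2 at 184 and 74, in PCK2 at 193 and in MTHFD1L, beside 34.6% of all entries. CACGTG was found in MTHFD1L alone among the 6 genes, beside 7.26% of all entries. These matches describe the letters in the window and say nothing of binding.

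The deposited values are linear intensities. They were quantile normalized, values under a floor of 16 were set to 16, and differences are given as log2 of the shDCD array over pLKO, or as the fold. A probe set was tested if its mean log2 value was at or above the median of all probe sets. Of the 20 member probe sets 14 were tested, and they represent 8 genes. The 2 probe sets of MTHFD1L and the 3 of ALDH1L2 were not tested, and 4 of these 5 were at the floor on all 4 arrays. The remaining ALDH1L2 probe set reached a normalized intensity of 26.1 in clone 3 and was at the floor on the other arrays. Further probe sets that name MTHFD1L (2) or PHGDH (1) together with other loci were left out by the rule.

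Signs of RNA quality differed between the 4 arrays. For ACTB the 3' control probe set read 9.67 times its 5' partner in clone 1, 2.58 times in clone 2, 42.6 times in clone 3 and 5.29 times in pLKO. The GAPDH controls gave 2.18, 1.02, 13.1 and 1.09. Such ratios rise in degraded or incompletely labelled RNA. Clone 2 is thus the only derivative whose ratios were not above those of pLKO. The single DCD probe set had deposited intensities of 7 in clone 1, 6 in clone 2, 2.7 in clone 3 and 2 in pLKO. All were under the floor, so the arrays give no check of the knockdown. The paper reports lower DCD mRNA by quantitative RT-PCR and lower protein by immunoblot and immunocytochemistry in cells with DCD shRNA. All 7 luminal markers (EPCAM, KRT8, KRT18, KRT19, GATA3, ESR1 and ERBB2) were above the floor, with a summed normalized intensity of 14032 in pLKO and from 20209 to 24544 in the derivatives. By the normalized intensity of the brightest probe set, all 7 were higher in clones 1 and 2 than in pLKO. In clone 1 EPCAM was only 1.11-fold and KRT19 1.04-fold higher. In deposited intensity EPCAM, KRT19, ESR1 and ERBB2 were lower in clone 1, and KRT8, KRT18 and GATA3 higher. In clone 3 EPCAM was 2.25-fold, KRT19 2.73-fold and ERBB2 3.13-fold lower after normalization. KRT18 (9012 against 4886) and GATA3 (6541 against 894) made up most of the sum of clone 3. The basal markers KRT5 and KRT14 were at the floor on all 4 arrays. The summed intensity of the 4 fibroblast markers was 235 in pLKO and 225 to 502 in the derivatives, that of the 3 leukocyte markers 51.1 and 48 to 51.6, and that of the 3 endothelial markers 93.9 and 60.4 to 84.4. In bulk RNA, fewer cells of a type and less RNA per cell cannot be told apart.

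By the brightest tested probe set, all 8 genes were lower than pLKO in clone 1 (background 48.5% of all genes) and all 8 in clone 2 (49.2%), while 5 were lower and 3 higher in clone 3 (53.8% lower). The 5 genes lower in all 3 comparisons were PHGDH, SHMT2, MTHFD2, PCK2 and PYCR1, against a background of 21.3% of the 12728 genes tested. Without clone 3, where the control ratios were highest, all 8 were lower in both remaining comparisons, and 30.8% of all genes were lower in both. The median log2 difference of the 8 genes was -1.21 in clone 1, -1.65 in clone 2 and -0.42 in clone 3, where the median over all genes was 0.01, 0 and -0.11. At least 3-fold lower values were found for 5 of the 8 genes in clone 2 (PHGDH, PSAT1, SHMT2, MTHFD2 and ASNS; background 0.927%), for 2 in clone 1 (PHGDH and ASNS; 2.15%) and for 1 in clone 3 (PCK2; 10.9%). None of the 8 reached 3-fold in each of the 3 comparisons, a rule met by 0.181% of all genes. These counts are descriptions of 1 array set against 1 array. limma, fitted across all 27307 tested probe sets with 2 residual degrees of freedom, called 0 of the 8 genes, with adjusted p = 0.9998 for the lowest of them. In limma PCK2 had an unadjusted p of 0.0287 and PHGDH of 0.0464, and the other 6 genes lay above 0.05, where 0.458% of all tested probe sets were lower and 0.297% higher at that unadjusted level.

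**Figure D1:**
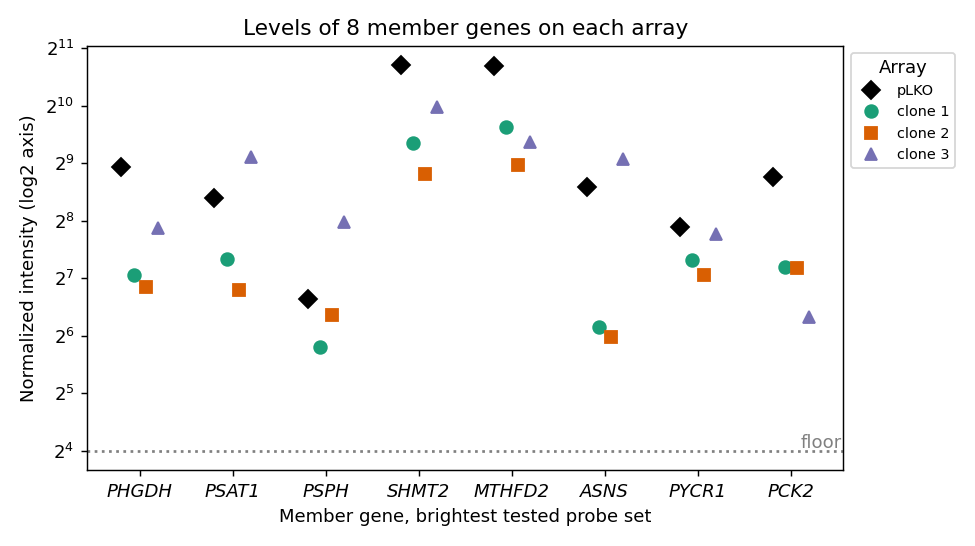
Normalized intensity (log2 axis) of the 8 measurable genes on each array, by the brightest tested probe set; each point is 1 array (diamond, pLKO; circle, clone 1; square, clone 2; triangle, clone 3) and the dotted line is the floor of 16. pLKO lies above clones 1 and 2 for every gene, and clone 3 lies above pLKO for PSAT1, PSPH and ASNS.

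Of the enzymes of serine synthesis, PHGDH, which catalyses the first and committed step, had a normalized intensity of 134 in clone 1, 116 in clone 2, 236 in clone 3 and 489.7 in pLKO. In clones 1, 2 and 3 it was 3.67-fold, 4.23-fold and 2.08-fold lower than in pLKO, with a mean log2 difference of -1.67 ± 0.54 (SD, n = 3 comparisons). The lowest gap, 1.05 between pLKO and clone 3, was close to the range of 1.03 among the derivatives themselves. PSAT1, the aminotransferase of the next step, had 162 in clone 1, 112 in clone 2, 556 in clone 3 and 336 in pLKO by its brightest probe set. It was 2.08-fold lower in clone 1 and 3.01-fold lower in clone 2 but 1.65-fold higher in clone 3, and the mean of -0.64 ± 1.21 was smaller than the spread. The other PSAT1 probe set was lower in all 3 comparisons, with 43.6, 54.3 and 55.8 in clones 1, 2 and 3 against 103 in pLKO, which is 2.37-fold, 1.90-fold and 1.85-fold. The 2 probe sets of PSAT1 thus differ in sign in clone 3.

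PSPH, the phosphatase that completes the pathway, did not follow the pattern of PHGDH. Its brightest probe set had 56.2 in clone 1, 82.6 in clone 2, 253 in clone 3 and 99.5 in pLKO, so that pLKO lay inside the range of the derivatives. Over the 3 comparisons the log2 difference averaged 0.08 ± 1.13 (SD). Its second probe set was 1.09-fold higher in clone 1, 1.41-fold higher in clone 2 and, at the floor in clone 3, at least 2.34-fold lower there. The third, of the type whose probes may match other transcripts (suffix x), had pLKO and clone 2 at the floor. In deposited intensity the brightest probe set read 131 in clone 2 and 128.5 in clone 3 against 125 in pLKO, and 52.1 in clone 1.

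Of the mitochondrial folate enzymes, SHMT2 and MTHFD2 were measurable and both were lower in all 3 comparisons. SHMT2, which takes the carbon unit from serine, had 656 in clone 1, 452 in clone 2, 1012 in clone 3 and 1673 in pLKO. In clones 1, 2 and 3 it was 2.55-fold, 3.70-fold and 1.65-fold lower, with a mean of -1.32 ± 0.58 (SD, n = 3 comparisons). Its 3 probe sets were all lower in every comparison, but by unequal amounts. A second probe set was 2.16-fold, 2.70-fold and 2.46-fold lower, whereas the third was 7.80-fold lower in clone 1, 3.06-fold lower in clone 2 and, at the floor in clone 3, at least 29.3-fold lower there. The order of the third probe set across the derivatives (clone 3, clone 1, clone 2) is that of the 3' to 5' ratios, which is not so for the other probe sets of SHMT2. The part of RNA quality in this was not tested, and in clone 2, where those ratios were not raised, the 3 probe sets lay between 2.70-fold and 3.70-fold lower.

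MTHFD2, the dehydrogenase and cyclohydrolase of the next steps, had 794 in clone 1, 504 in clone 2, 664 in clone 3 and 1656 in pLKO. It was 2.09-fold, 3.29-fold and 2.49-fold lower, and its mean of -1.37 ± 0.33 (SD, n = 3 comparisons) had the smallest SD among the 8 genes. The gap from pLKO to the nearest derivative was 1.06 on the log2 scale, against a range of 0.66 among the derivatives. Its other probe set, with suffix x, was 2.44-fold lower in clone 1 and 1.62-fold lower in clone 2 but 1.48-fold higher in clone 3.

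ASNS, asparagine synthetase, had the largest difference of the 8 genes in clones 1 and 2. Its normalized intensity was 71.0 in clone 1, 63.1 in clone 2, 540.04 in clone 3 and 385 in pLKO. It was thus 5.41-fold lower in clone 1 and 6.09-fold lower in clone 2, and 1.40-fold higher in clone 3. Clone 2 minus clone 1 was -0.17 on the log2 scale, and clone 3 lay 3.10 above clone 2, a gap larger than that between pLKO and any derivative. The mean over the 3 comparisons, -1.52 ± 1.74 (SD, n = 3 comparisons), was smaller than its spread. Its second probe set was at the floor on all 4 arrays.

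PCK2, the mitochondrial carboxykinase, had 147 in clone 1, 145 in clone 2, 80.9 in clone 3 and 435 in pLKO by its single probe set. It was 2.95-fold, 2.99-fold and 5.38-fold lower, with a mean of -1.86 ± 0.49 (SD, n = 3 comparisons). The gap from pLKO to the nearest derivative, 1.56 on the log2 scale, was the widest among the 8 genes and exceeded the range of 0.86 among the derivatives. PYCR1, the reductase of proline synthesis, had 159 in clone 1, 133.2 in clone 2, 219.9 in clone 3 and 238 in pLKO, also by a single probe set. In clones 1, 2 and 3 it was 1.49-fold, 1.79-fold and 1.08-fold lower. The gap of 0.12 to clone 3 was well within the range of 0.72 among the derivatives. PCK2 was the only gene of the 8 that was lowest in clone 3.

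**Figure D2:**
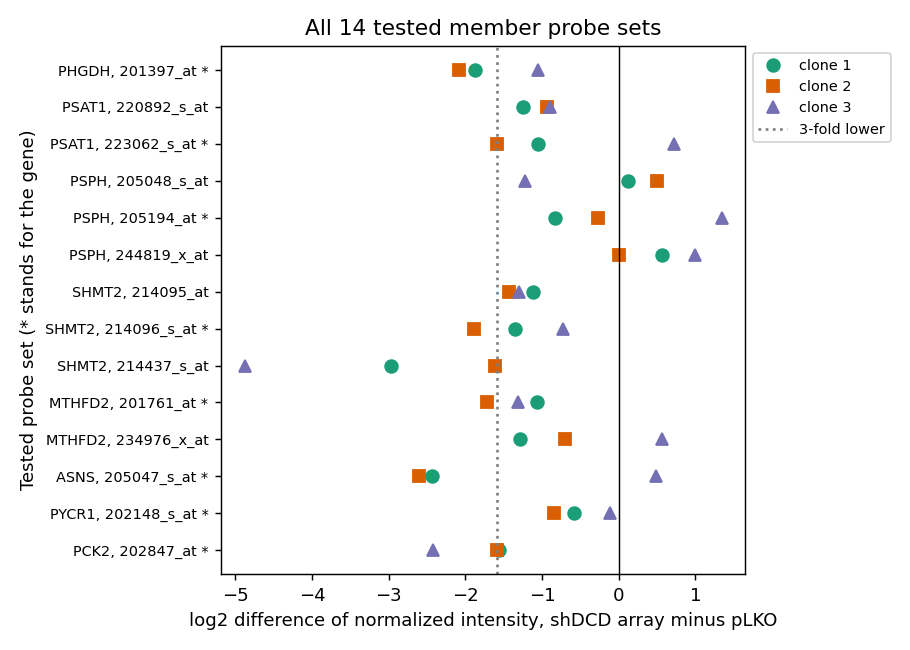
log2 of the normalized intensity of each derivative over pLKO for all 14 tested probe sets of the 8 genes; each point is 1 comparison (circle, clone 1; square, clone 2; triangle, clone 3), the solid line marks no difference, the dotted line 3-fold lower, and an asterisk the probe set that stands for the gene. The points of clones 1 and 2 lie close together for ASNS and PCK2, and the points of clone 3 spread from -4.87 for a SHMT2 probe set, which is at the floor there, to 1.34 for PSPH.

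Over probe sets, 8 of the 14 tested were lower in all 3 comparisons (1 each of PHGDH, PSAT1, MTHFD2, PYCR1 and PCK2 and all 3 of SHMT2), where 20% of all tested probe sets were. The other 6 were 1 of PSAT1, all 3 of PSPH, 1 of MTHFD2 and 1 of ASNS. When all probe sets of each gene were averaged, 6 of the 8 genes were lower in all 3 comparisons. The median of the 8 genes was then -1.20, -1.28 and -0.25 in clones 1, 2 and 3. This averaging also takes in probe sets that were not tested. The share of all genes lower under it was not computed, so the count of 6 has no background.

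**Figure D3:**
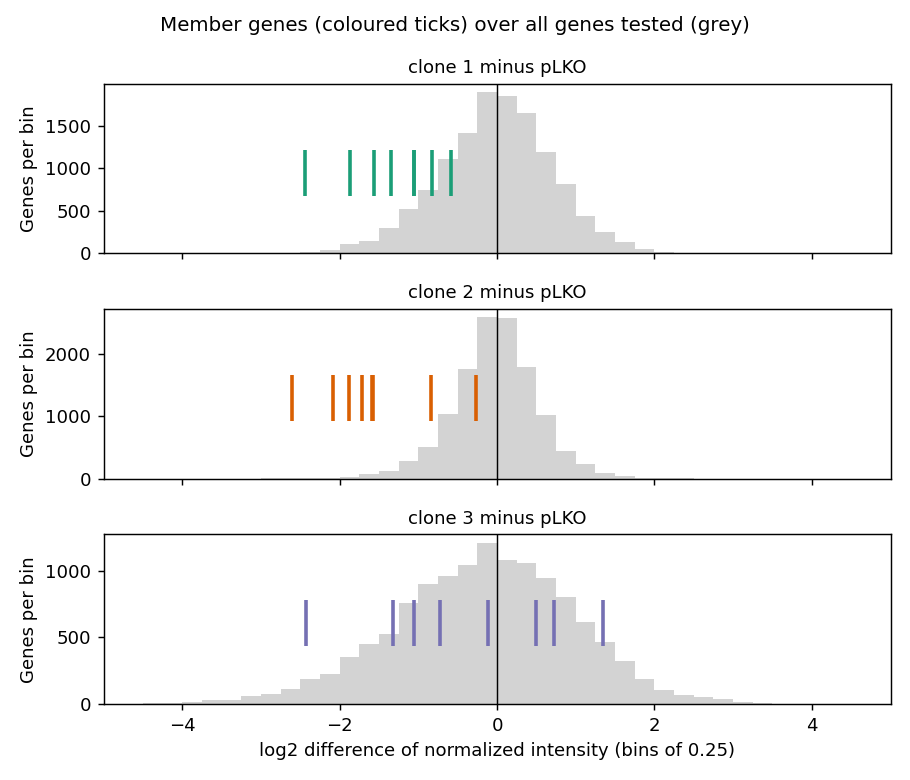
Number of genes in each bin of the log2 difference from pLKO (grey, all 12728 genes tested) with the 8 member genes as coloured ticks, 1 panel for each derivative. In clone 2 the ticks of 6 genes lie at -1.58 or lower, where the grey distribution is narrow, and in clone 3 the ticks spread over both sides of 0 within a wider distribution.

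The direction of PSAT1 and ASNS in clone 3 depended on the scaling, as did that of PSPH in clone 2. In clone 3 PHGDH, SHMT2, MTHFD2, PYCR1 and PCK2 were lower under all 3 scalings. PSPH was higher there under all 3, though by only 0.04 in the values as deposited. In deposited intensity, which is not scaled between arrays, ASNS read 267 in clone 3 against 512.6 in pLKO and PSAT1 276 against 443, so both were lower there. On that scale 7 of the 8 genes were lower in all 3 comparisons (background 20.4%). The deposited values of clone 3 were, however, low as a whole, and 85.7% of all genes were lower than in pLKO there. The median of all genes was -1.08 in clone 3, -0.43 in clone 1 and 0.36 in clone 2 in the values as deposited, and -0.54, -0.38 and 0.09 with median centring. Relative to these medians, 8 genes were below in clone 1, 8 in clone 2 and 5 in clone 3 under all 3 scalings, with PSAT1, PSPH and ASNS above in clone 3. For ASNS in clone 3 the difference relative to the median of all genes was 0.60 with quantile normalization, 0.22 with median centring and 0.14 without scaling. For PCK2 it was -2.32, -2.51 and -2.58, and for PHGDH -0.95, -1.29 and -1.36. PYCR1 was at -0.01, -0.29 and -0.37, so with quantile normalization it lay almost at the median. In clone 2 the relative differences moved little, from -2.61 to -2.78 for ASNS and from -2.08 to -2.14 for PHGDH.

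**Figure D4:**
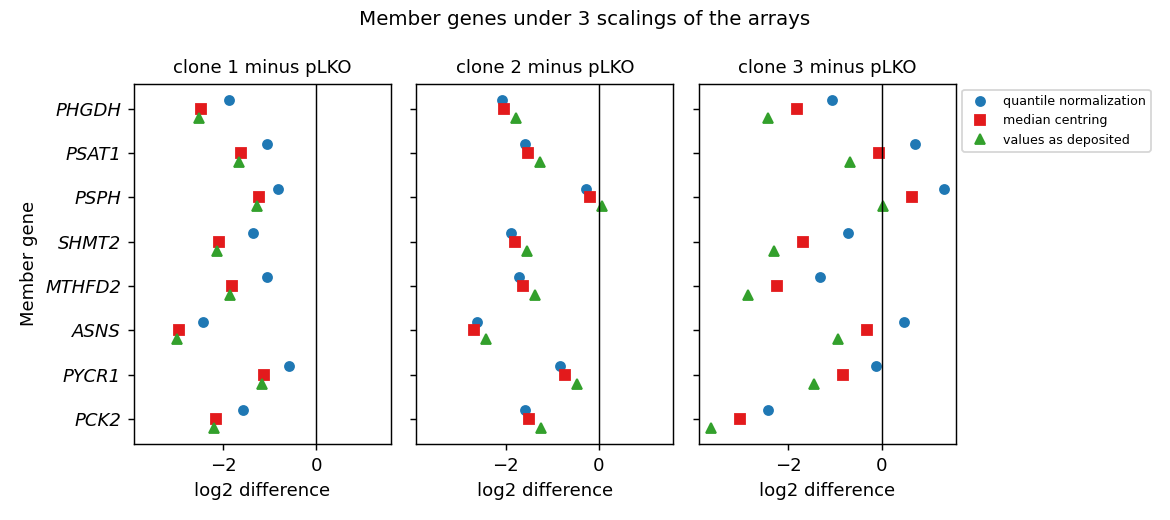
log2 difference from pLKO of the 8 genes under quantile normalization (circle), median centring (square) and the values as deposited (triangle), 1 panel for each derivative, with the vertical line at no difference. In clone 3 ASNS lies at 0.49, -0.32 and -0.94 and PSAT1 at 0.73, -0.06 and -0.69. The points of each gene lie closer together in clone 2 than in clone 3. PSPH still changes sign in clone 2, at -0.27, -0.20 and 0.06.

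The related genes of the other compartment or isoform gave few pairs that could be compared. Of the 6 pairs, both genes were tested in 2. MTHFD2 was lower, relative to pLKO, than its paralogue MTHFD2L by 0.17, 1.66 and 2.30 on the log2 scale in clones 1, 2 and 3. PYCR1 lay below PYCR3 in clones 1 and 2, by 1.11 and 1.59, and, with PYCR3 at the floor in clone 3, above it by at least 1.35 there. SHMT1, the cytosolic form of SHMT2, and PCK1, the cytosolic form of PCK2, had no tested probe set. MTHFD1, the cytosolic trifunctional folate enzyme, had normalized intensities of 275 in clone 1, 193 in clone 2, 384 in clone 3 and 238 in pLKO, with pLKO inside the range of the derivatives.

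Among 56 other genes of folate, glycine, methionine and nonessential amino acid metabolism, 42 were tested. By the brightest probe set 14 lay below pLKO in all 3 comparisons, 3 lay above it and 25 were mixed or equal, against 21.3% of all genes lower and 18.8% higher. Their median log2 difference was -0.07 in clone 1, -0.21 in clone 2 and -0.67 in clone 3. By group, 2 of 7 enzymes of cytosolic and shared folate metabolism were lower in all 3 comparisons, 1 of 4 folate transporters, 3 of 5 enzymes of glycine cleavage and serine breakdown, 0 of 5 enzymes of purine synthesis, 3 of 8 of the methionine cycle and transsulfuration and 5 of 13 of the remaining amino acid enzymes. ASS1, which makes argininosuccinate, was 5.01-fold, 4.69-fold and 1.62-fold lower in clones 1, 2 and 3. CBS, the first enzyme of transsulfuration, which draws on serine, was 2.14-fold, 3.10-fold and 2.42-fold lower. GCSH, the hydrogen carrier of glycine cleavage, was 1.63-fold, 1.60-fold and 1.63-fold lower. Its other tested probe set was less even, at 2.31-fold, 1.73-fold and 5.10-fold lower. GGH, which trims the glutamate tail of folates, was 1.94-fold and 1.90-fold lower in clones 1 and 2 and, at the floor in clone 3, at least 16.5-fold lower there. limma called 0 probe sets at an adjusted p under 0.05 in either direction, and at an unadjusted p under 0.05 there were 125 lower and 81 higher.

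Of 9 regulators of the amino acid response and MYC, all tested, 4 lay below pLKO in all 3 comparisons and 1 above it. This is by the brightest probe set, where 21.3% of all genes were lower and 18.8% higher. CEBPB, which binds the amino acid response element together with ATF4, was 3.99-fold, 3.82-fold and 1.70-fold lower in clones 1, 2 and 3. TRIB3, a target and feedback inhibitor of ATF4, was 3.47-fold, 2.60-fold and 1.43-fold lower. Its other tested probe set was 5.63-fold, 1.97-fold and 12.6-fold lower. MYC, which also acts on serine synthesis genes, was 1.89-fold, 4.42-fold and 1.56-fold lower. EIF2AK4 (GCN2), the kinase that senses uncharged tRNA, was the gene above pLKO, with log2 differences of 1.17, 0.41 and 0.26. Its other tested probe set went both ways, with -0.01, -0.44 and 0.44 in clones 1, 2 and 3. ATF4 mRNA itself had normalized intensities of 2332 in clone 1, 1373 in clone 2, 4362 in clone 3 and 2368 in pLKO, so that pLKO lay inside the range of the derivatives, and its protein, which is controlled by translation, was not measured on these arrays.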

How the data were processed

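The 4 arrays (3 with DCD shRNA, 1 with pLKO) were grouped by the sample titles. The authors deposited an intensity on a linear scale for each probe set of each array. The methods name dChip for the analysis, and the program and scaling behind the deposited intensity values are not given in the sources used here. Their medians were 20 in clone 1, 24.7 in clone 2, 13.4 in clone 3 and 20.6 in pLKO, and 43.9%, 39.3%, 55.1% and 43.4% of probe sets lay under the floor of 16. The number of arrays limits the precision.

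Intensities of 0 were set to 0.1, and log2 values were quantile normalized and floored. After leaving out 62 control probe sets, 27307 probe sets whose mean reached the median were tested. The platform annotation gave 41097 probe sets 1 gene, 1801 several and 11777 none, and 41043 of the first were matched by gene identifier to a GRCh38.p14 table for current symbols. A gene was represented by its brightest tested probe set (12728 genes). Each derivative was set against pLKO with the 3-fold rule that the paper gives in its results, and its methods ask for significance in each pair-wise comparison, which single arrays do not allow here. Both groups were compared with limma 3.58.1 in R 4.3.3, adjusted by Benjamini-Hochberg. Its spread comes from the 3 arrays with different hairpins, and pLKO is taken to vary as they do, so p-values measure only the spread between these samples. The scripts were tested on simulated data.

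The members and the lists were chosen with earlier results of these data known. The named genes were all members, their paralogues, DCD, the control genes and up to 4 genes of each other list with the largest smallest difference in 1 direction. ATF4 was named after its values were seen. 1 listed gene is not reported here. Alternatives covered scaling, floor, filter, probe set choice, a trend in limma, each derivative left out and, chosen after seeing the data, clone 2 alone.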

Additional observations from a re-analysis of the deposited data

Results flagged for a closer look

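The control probe sets, which enter none of the comparisons, gave 3' to 5' ratios above those of pLKO in 2 of the 3 derivatives. For ACTB the ratio was 42.6 in clone 3 and 9.67 in clone 1, against 5.29 in pLKO. For GAPDH it was 13.1 in clone 3 and 2.18 in clone 1, against 1.09. Clone 3 was also the array on which PSAT1, PSPH and ASNS lay above pLKO after normalization. The part of RNA quality in these values was not tested.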

How the results depend on the processing

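No paired analysis was possible because pLKO has 1 array and its label carries no number. The number of member genes lower in all comparisons was between 5 and 8 when each derivative was left out, with 8 without clone 3, and 8 in clone 2 alone. Fewer comparisons remain in these settings, so more genes meet the rule. In the main setting 30.8% of all genes were lower in both clones 1 and 2, and 49.2% in clone 2. The share without clone 1 or without clone 2 was not computed. For probe sets the count ran over all 20 of the members, tested or not, including those at or near the floor. It was between 8 and 14 when each derivative was left out, with 14 without clone 3. The share of all probe sets under these settings was not computed. At least 3-fold lower in all comparisons were 3 genes with median centring and 1 with the values as deposited. There was 1 with the mean of all probe sets and 1 with the mean of the tested ones. There were 5 in clone 2 alone, and between 0 and 3 when each derivative was left out. The share of all genes at 3-fold was 0.181% in the main setting and 0.927% in clone 2 alone. It was not computed under the other settings, so those counts have no background. The members' median moved from -1.21 to -1.95 in clone 1 and from -0.42 to -1.26 in clone 3 with median centring, and to -1.99 and -1.88 in the values as deposited, where the median of all genes moved too. Of the 42 other pathway genes tested, 26 were lower in clone 2 alone, where 49.2% of all genes were. The number of paralogue pairs with the member lower was 4 with a floor of 64 and 3 without a filter, where more genes enter, and between 1 and 2 when each derivative was left out. The mean log2 difference of PSPH turned from 0.08 to -0.25 with median centring, -0.39 in the values as deposited and -0.58 without clone 3, and was 0.54 without clone 1. Those of the other 7 tested genes stayed below 0 under all 12 alternatives, from -2.60 to -0.76 for ASNS, with -2.60 without clone 3, and from -1.36 to -0.16 for PSAT1, with -1.36 without clone 3 and -0.16 without clone 2. limma called 0 members under every alternative but clone 2 alone, where it could not be fitted; with a floor of 64 most probe sets sit at the floor on every array, and its fit is unreliable. The causes were not tested. With a single pLKO array, its own variation has no measure.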
